A study of Mus musculus with 6 samples.

Results

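The mitochondrial SLC25 carriers and the uncoupling proteins were followed in mouse astrocytes that had received a Cre lentivirus or a control lentivirus. Members were chosen by gene symbol and selected on the presence of a value: they were the probes of the authors' table whose platform gene symbol was Slc25a followed by a number, or Ucp1, Ucp2 or Ucp3, with a value on at least 3 of the 6 arrays. The size or direction of the difference played no part in the rule. This gave 49 probes of 47 genes among the 23473 probes of the array. Slc25a51 and Slc25a53 had 2 probes each. No probe of these names was lost to the limit of 3 values. The 2 members closest to it were a Slc25a53 probe with a value on 4 arrays and the Slc25a31 probe with a value on 5. Ucp2 and Slc25a34 were not analysed here.

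The astrocytes came from the cortex of P0 C57BL/6J mice with Chd7flox/flox alleles, so both groups carried the floxed gene. Cre was delivered by lentivirus in one group (3 arrays) and a control lentivirus was given in the other (3 arrays), and cells were harvested 3 days after infection. The medium of all cultures held B-27 supplement, 10% FBS and the growth factors EGF and FGF2. Since Cre was present in the Chd7-targeted cultures alone, what the enzyme itself does and what loss of Chd7 does cannot be told apart. The labels do not say whether replicates came from separate cultures, so the spread behind each p-value is that of these 6 samples and could be technical.

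On each array between 82.9% and 90.8% of probes lay above the blank spots, with fewer on Cre arrays (82.9 to 87.0%) than on control arrays (87.4 to 90.8%). Levels are given as log2 intensity after background correction and quantile normalisation, which leaves a floor near 5.7. The signal of a probe depends on the probe itself, so levels of different genes were not ranked as amounts of RNA. The number of arrays limits the precision. For Chd7, which encodes a chromatin remodeller, the brighter probe read 8, 7 and 8 units on the Cre arrays and 42, 89 and 46 units on the control arrays in the authors' linear values, so the groups did not overlap. Its log2 difference was -1.13 (SE 0.16), with a limma adjusted p of 0.406 over all probes. The dimmer Chd7 probe read -0.11 (SE 0.06, limma adjusted p = 0.997).

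SLC25 carriers are small proteins of the inner mitochondrial membrane that pass metabolites, nucleotides, cofactors and ions between the cytosol and the matrix. They are made in the cytosol, taken up through the TOM complex and inserted into the inner membrane by the TIM22 complex. The uncoupling proteins belong to the same family, and UCP1 of brown fat lets protons back into the matrix so that energy is released as heat. In astrocytes, carriers of this family serve the shuttling of reducing equivalents, the entry of glutamate into mitochondria and the exchange of ATP for ADP.

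The data show 2 carriers that were higher in Cre cultures at an unadjusted p under 0.05 and a family that otherwise stood near 0. These were Slc25a30, a relative of the uncoupling proteins, at 1.5-fold, and Slc25a23, a calcium-regulated carrier of ATP-Mg and phosphate, at 1.19-fold. Of 47 member probes tested, 0 passed an adjusted p of 0.05 in limma, as did 0% of all 20542 probes tested. At an unadjusted p under 0.05 in limma there were 2 member probes (4.26%), against 5.62% of all probes, so the share of members was no larger than the background. Both were higher in Cre cultures and 0 were lower, where 2.77% and 2.85% of all probes were called in these directions. With the replicate number as a block, 3 of the 47 member probes reached that level, against 9.34% of all probes, and again 0 passed the adjusted threshold.

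The bases upstream of both genes are shown because these are the members with the smallest p-values. They are RefSeq sequence of build GRCm38.p6, 250 bases up to the annotated start, 5′ to 3′ on the strand of the gene, with a CCAAT box (CCAAT) and a GC box (GGGCGG), searched on both strands, in capitals.
Slc25a30: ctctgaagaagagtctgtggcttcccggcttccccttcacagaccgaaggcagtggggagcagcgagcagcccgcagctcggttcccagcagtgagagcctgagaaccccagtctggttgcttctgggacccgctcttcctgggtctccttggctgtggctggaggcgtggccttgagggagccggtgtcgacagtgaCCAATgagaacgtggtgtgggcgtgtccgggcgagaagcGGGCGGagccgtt
Slc25a23: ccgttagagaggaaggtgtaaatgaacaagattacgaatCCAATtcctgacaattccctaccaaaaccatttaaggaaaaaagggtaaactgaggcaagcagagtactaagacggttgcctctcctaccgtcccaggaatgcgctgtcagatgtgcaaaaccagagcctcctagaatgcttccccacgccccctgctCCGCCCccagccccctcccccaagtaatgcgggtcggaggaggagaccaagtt
The Slc25a30 window lies at chr14:75787038-75787287 and the Slc25a23 window, of the more upstream of 2 annotated starts, at chr17:57059864-57060113, both on the minus strand. In Slc25a30 the CCAAT box begins 52 bases and the GC box 13 bases before the start. In Slc25a23 the CCAAT box begins 211 bases before the start and the GC box, read on the opposite strand, 53 bases before it.

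Promoter windows were found for 37 of the 47 member genes. A GC box stood in 23 of the 37 (62.2%), against 32.9% of all 27025 gene windows of that length, and a CCAAT box in 15 (40.5%), against 34.5%. The E-box CACGTG was found in 6 (16.2%), against 6.05%, and the core of the amino acid response element, TGATGNAA, in 0, against 3.53%. All motifs were searched on both strands, and none of the 4 motifs holds another of them. The base composition of the windows was not matched, so these shares describe the letters alone.

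Among the uncoupling proteins and their relatives, Slc25a30 had the smallest p-value. SLC25A30 was described in mouse as a kidney mitochondrial carrier and is close in sequence to the carriers encoded by Slc25a14 and Slc25a27. Slc25a30 read 7.89, 8.10 and 7.97 log2 units on the Cre arrays and 7.42, 7.46 and 7.31 on the control arrays. Every Cre array lay above every control array, and the gap between the groups exceeded the range within either. The difference was 0.59 (SE 0.07, 95% interval 0.41 to 0.76), with an unadjusted p of 0.000234 and an adjusted p of 0.406 in limma. It was 0.46, 0.64 and 0.66 in the 3 same-numbered pairs. In the authors' linear values the probe read 110, 114 and 117 units on Cre arrays and 71, 86 and 67 units on control arrays, or 152% of the control mean. Of the 20542 probes tested, 9 had a smaller p and 21 had a larger positive difference. Slc25a30 was singled out by its p, so these ranks lend it no separate support.

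In its relatives Slc25a14 and Slc25a27 the groups overlapped. Slc25a14 encodes a brain-expressed relative of the uncoupling proteins. Its probe read 7.62, 7.81 and 7.85 on Cre arrays and 7.92, 7.61 and 8.10 on control arrays, with no separation of the groups (difference -0.12, SE 0.14, 95% interval -0.47 to 0.23). Slc25a27, another brain-expressed relative, read 6.15, 6.14 and 6.04 on Cre arrays and 6.05, 6.32 and 6.11 on control arrays, close to the floor (difference -0.05, SE 0.08). The pairs of relatives compared were built around Slc25a30 and Slc25a23 because of their small p-values in these same arrays. A separation in such a pair therefore lends these genes no separate support. Within arrays, Slc25a30 less Slc25a14 was 0.71 higher in Cre cultures and Slc25a30 less Slc25a27 was 0.64 higher, and neither quantity overlapped between the groups. By exact permutation (two-sided) each gave p = 0.1, the smallest that 3 arrays against 3 can give, and 0.2 adjusted over the 4 pairs of relatives compared.

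Ucp1, the brown fat protein, and Ucp3, its muscle relative, gave little signal. Ucp1 read 11, 11 and 11 units in Cre cultures and 9, 10 and 12 in control cultures in the authors' values, where the median of each array is 25. Ucp3 read 6, 8 and 5 units in Cre cultures and 7, 6 and 7 in control cultures. Their log2 differences of 0.05 (SE 0.04) and 0.03 (SE 0.05) did not pass (limma adjusted p = 0.999 for both). Of the fat markers, Adipoq was above background on 1 Cre array and 0 control arrays, Fabp4 on 2 Cre arrays and 3 control arrays, and Plin1 and Cidea on all arrays. Cidea read 23, 33 and 35 units in Cre cultures and 20, 42 and 31 in control cultures, and the other fat markers at most 7 units in Cre cultures and 9 in control cultures. Of the muscle markers, Myh1 was above background on 0 arrays, while Ckm and Actn3 were above it on all arrays at 5 to 11 units in Cre cultures and 5 to 13 in control cultures. The fat list summed to 34 to 47 units in Cre cultures and 33 to 53 in control cultures, and the muscle list to 15 to 17 in Cre cultures and 14 to 21 in control cultures.

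**Figure D1:**
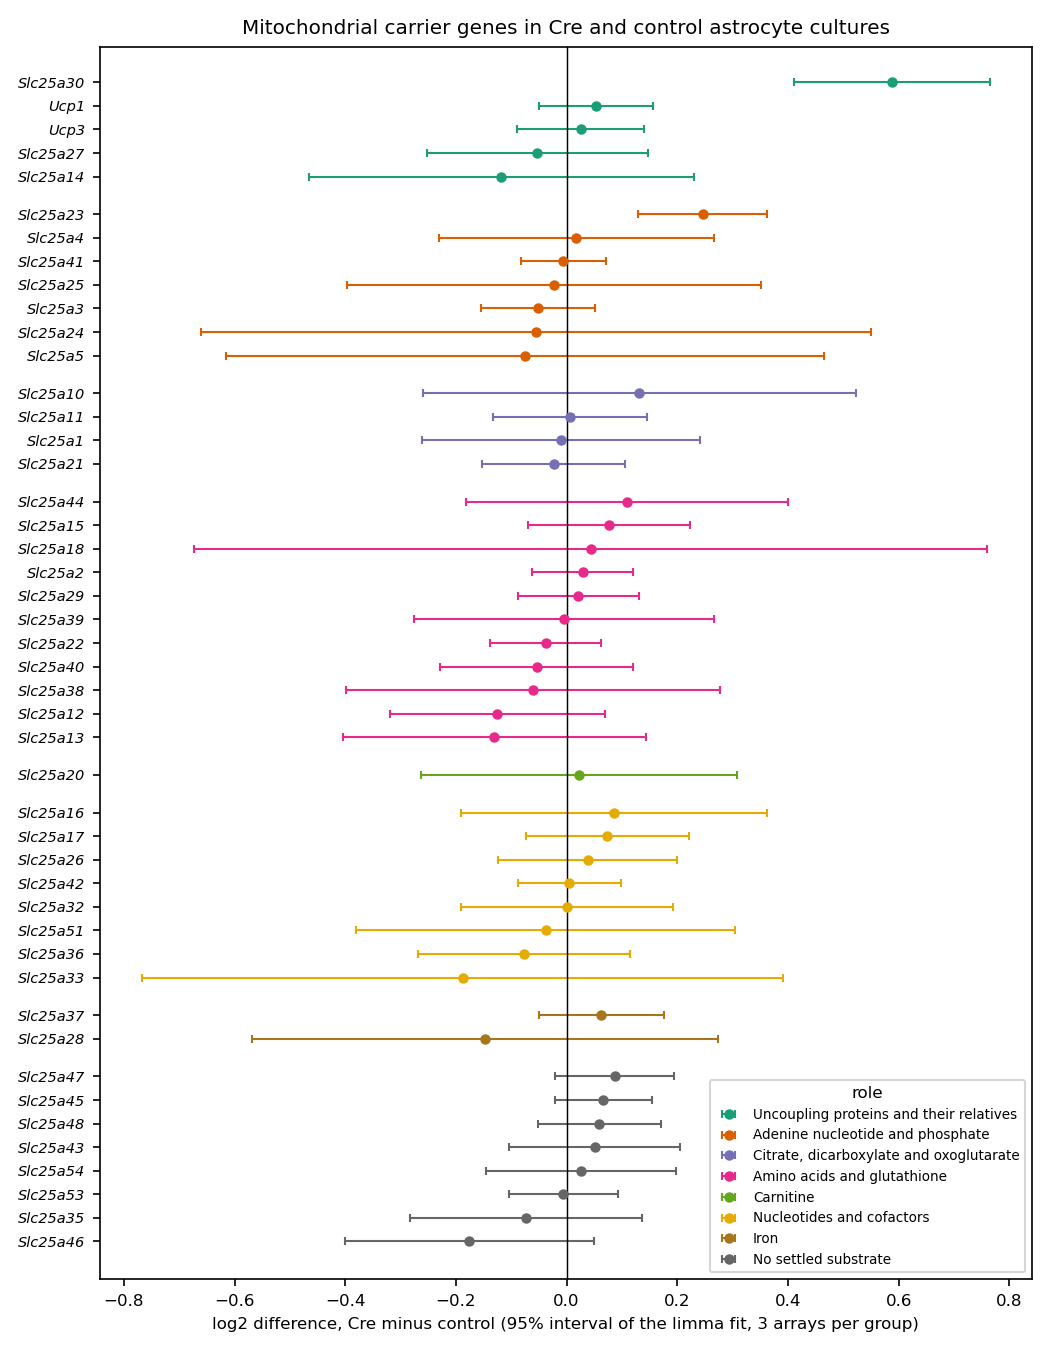
Log2 difference between Cre and control cultures (horizontal axis) for each tested carrier gene (vertical axis), by role. Points are limma estimates and bars their 95% intervals, with 3 arrays per group. Slc25a30 (0.59) and Slc25a23 (0.25) have intervals above 0, and the intervals of the other 44 genes include it.

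Carriers of adenine nucleotides and phosphate gave the second member with a small p-value. Of 7 genes tested in this group, 2 were above 0 and 5 below, with a median of -0.02 and 0 past the adjusted threshold. SLC25A23 brings ATP-Mg into the matrix in exchange for phosphate and binds calcium on its cytosolic side. Slc25a23 read 7.25, 7.32 and 7.33 on the Cre arrays and 7.08, 6.99 and 7.11 on the control arrays. The groups did not overlap, at a difference of 0.25 (SE 0.05, 95% interval 0.13 to 0.36), an unadjusted p of 0.00237 and an adjusted p of 0.537 in limma. The 3 same-numbered pairs gave 0.18, 0.33 and 0.22. In the authors' linear values the probe read 61, 56 and 65 units in Cre cultures and 50, 51 and 54 units in control cultures.

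The calcium-regulated relatives of Slc25a23 varied more between replicates than between groups. Slc25a24 read 7.66, 6.98 and 7.11 on the Cre arrays and 7.69, 7.05 and 7.18 on the control arrays, so replicate 1 was the highest in both groups. Its difference was -0.05 (SE 0.24). Slc25a25 read 7.65, 7.29 and 7.57 on Cre arrays and 7.29, 7.52 and 7.77 on control arrays, with overlapping groups and a difference of -0.02 (SE 0.15). The difference of Slc25a23 exceeded theirs by 0.30 and 0.27 and these within-array quantities overlapped between the groups (exact two-sided permutation, p = 0.4 and p = 0.3, 0.4 adjusted for each). With 0.1 as the smallest p possible, these tests could not separate any pair of relatives at 0.05. Slc25a41, a relative without the calcium-binding part, stayed near the floor, between 5.99 and 6.01 in Cre cultures and between 5.99 and 6.02 in control cultures.

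The 3 members with the strongest signal all belong to this group. Slc25a4 encodes the ADP/ATP carrier of heart, muscle and brain. It read 13.68, 13.98 and 13.74 on Cre arrays and 13.77, 13.91 and 13.68 on control arrays, with overlapping groups and a difference of 0.02 (SE 0.10, 95% interval -0.23 to 0.27). Slc25a3, the phosphate carrier that supplies ATP synthase, read 13.51, 13.49 and 13.59 on Cre arrays and 13.56, 13.57 and 13.61 on control arrays. The 3 same-numbered pairs gave -0.05, -0.09 and -0.02, all below 0, and the groups overlapped (difference -0.05, SE 0.04). Slc25a5, the ADP/ATP carrier of proliferating cells, read 12.19, 12.76 and 12.65 on Cre arrays and 12.41, 12.98 and 12.43 on control arrays. Its spread within each group exceeded its difference of -0.08 (SE 0.22, 95% interval -0.62 to 0.47). Slc25a31, the germ cell ADP/ATP carrier, was above background on 1 Cre array and 1 control array and was not tested. Probe sequences were not used here, so signal shared between these close relatives was not checked.

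**Figure D2:**
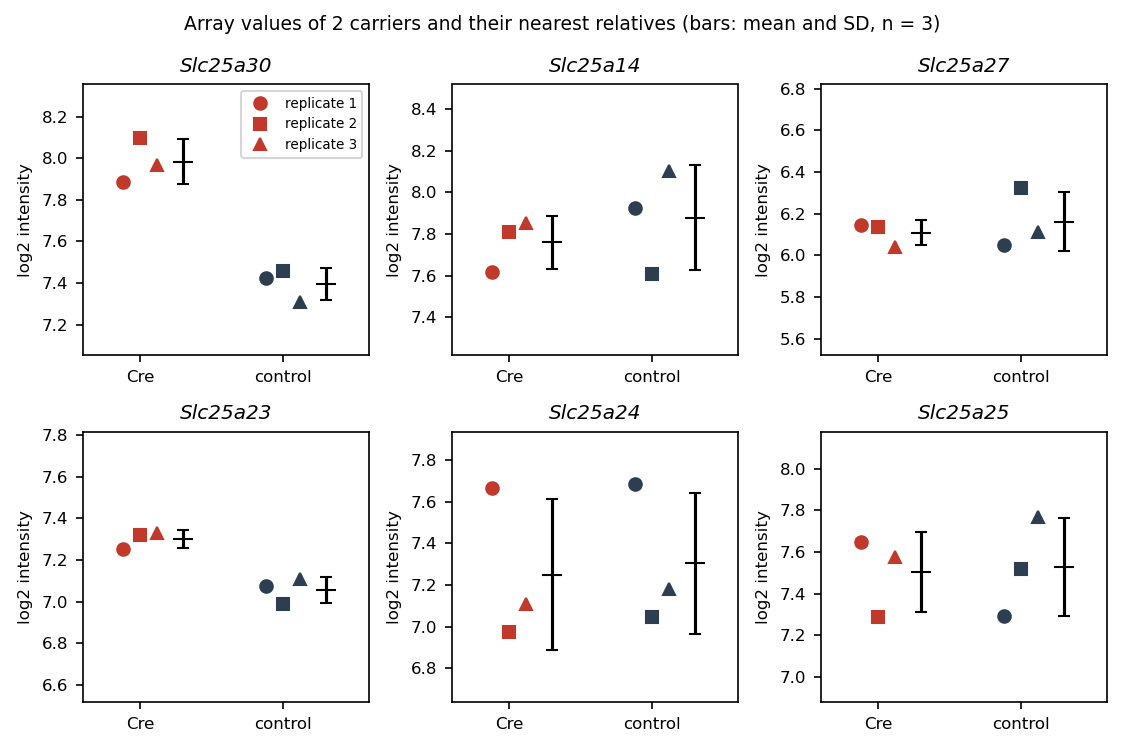
Log2 intensity (vertical axes, each spanning 1.3 log2 units) on the 3 Cre arrays and 3 control arrays for Slc25a30, Slc25a23 and 2 relatives of each. Marker shapes give the replicate number, and bars the mean and SD (n = 3). Groups separate in Slc25a30 and Slc25a23 and overlap in the other 4 genes.

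The 4 carriers of citrate, dicarboxylates and oxoglutarate split evenly, 2 above 0 and 2 below, with 0 past the threshold. Slc25a1 exports citrate for fatty acid and sterol synthesis, and its difference was -0.01 (SE 0.10). Slc25a11 exchanges oxoglutarate for malate in the malate-aspartate shuttle and stood at 0.01 (SE 0.06, 95% interval -0.13 to 0.14). Slc25a10, the dicarboxylate carrier, had the smallest p of the 4. It read 7.0, 7.19 and 7.10 on Cre arrays and 6.65, 7.26 and 6.99 on control arrays, where control replicate 1 was the lowest of the 6 (difference 0.13, SE 0.16, limma adjusted p = 0.999). Slc25a21, which carries oxodicarboxylates of lysine breakdown, stood at -0.02 (SE 0.05).

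Of 11 carriers of amino acids and glutathione, 5 lay above 0 and 6 below, between -0.13 and 0.11. Slc25a12 and Slc25a13 encode the aspartate-glutamate carriers, the calcium-regulated arm of the malate-aspartate shuttle. Slc25a12 read 9.13, 9.10 and 8.93 in Cre cultures and 9.06, 9.23 and 9.25 in control cultures, with 1 control array between the Cre arrays (difference -0.12, SE 0.08, limma adjusted p = 0.999). Slc25a13 stood at -0.13 (SE 0.11), and its highest value was on control replicate 2. Slc25a18, a glutamate carrier that astrocytes are known to express, read 8.87, 9.67 and 9.41 on Cre arrays and 8.92, 9.75 and 9.15 on control arrays. Replicate 1 was the lowest and replicate 2 the highest in both groups, and the difference of 0.04 (SE 0.29, 95% interval -0.67 to 0.76) had the widest interval of the tested carriers drawn in the plot of differences by role. The other glutamate carrier gene, Slc25a22, was steadier, at -0.04 (SE 0.04). The branched-chain amino acid carrier Slc25a44 stood at 0.11 (SE 0.12), the ornithine carrier Slc25a15 at 0.08 (SE 0.06) and its dim relative Slc25a2 at 0.03 (SE 0.04). The basic amino acid carrier Slc25a29 stood at 0.02 (SE 0.04), and Slc25a38, which carries glycine for heme synthesis, at -0.06 (SE 0.14). The glutathione carrier Slc25a39 stood at -0.005 (SE 0.11) and its relative Slc25a40 at -0.05 (SE 0.07).

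Slc25a20, which carries acylcarnitines in for fatty acid oxidation, read 7.41, 7.65 and 7.73 on Cre arrays and 7.57, 7.42 and 7.73 on control arrays. The groups overlapped throughout, at a difference of 0.02 (SE 0.11, 95% interval -0.26 to 0.31).

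Carriers of nucleotides and cofactors numbered 8, with 5 above 0, 3 below and 0 past the threshold. Slc25a17, a peroxisomal member that carries coenzyme A and related cofactors, read 10.80, 10.90 and 10.85 in Cre cultures and 10.72, 10.88 and 10.72 in control cultures (difference 0.07, SE 0.06). Slc25a33 and Slc25a36 encode carriers of pyrimidine nucleotides. Slc25a33 read 8.48, 8.89 and 9.07 in Cre cultures and 8.59, 9.10 and 9.31 in control cultures, so replicate 1 was the lowest and replicate 3 the highest in both groups. Its Cre array was lower in every pair, by -0.11, -0.21 and -0.24. The difference of -0.19 had an SE of 0.23 without the block (limma adjusted p = 0.999), and with the replicate block an unadjusted p of 0.0151 and an adjusted p of 0.421. It was the third member probe under 0.05 in that fit. Slc25a36 stood at -0.08 (SE 0.08).

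The other cofactor carriers stood between -0.10 and 0.09. Slc25a51 encodes a mitochondrial NAD carrier. Its brighter probe stood at -0.04 (SE 0.14) and its dimmer probe at -0.10 (SE 0.06). Slc25a16 and Slc25a42, both linked to coenzyme A, stood at 0.09 (SE 0.11) and 0.005 (SE 0.04). The S-adenosylmethionine carrier Slc25a26 stood at 0.04 (SE 0.07) and the folate carrier Slc25a32 at 0.001 (SE 0.08).

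The mitoferrins bring iron into mitochondria for heme and iron-sulfur clusters. Slc25a37, mitoferrin 1, read 6.27, 6.14 and 6.22 on Cre arrays and 6.17, 6.13 and 6.15 on control arrays (difference 0.06, SE 0.05). Slc25a28, mitoferrin 2, read 7.47, 7.52 and 7.46 on Cre arrays and 7.39, 8.02 and 7.48 on control arrays. Its difference of -0.15 (SE 0.17) had its highest array in control replicate 2, while the other 2 control arrays lay below 7.48, the Cre mean.

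The last 8 genes have no substrate that is settled for this grouping, and 5 lay above 0 and 3 below. Slc25a47, known as a liver carrier, read 6.75, 6.80 and 6.69 in Cre cultures and 6.70, 6.65 and 6.63 in control cultures. The groups overlapped at a difference of 0.09 (SE 0.04, limma adjusted p = 0.964). Slc25a46, an outer membrane protein involved in mitochondrial shape, read 8.60, 8.67 and 8.63 in Cre cultures and 8.81, 8.98 and 8.63 in control cultures (difference -0.18, SE 0.09, limma adjusted p = 0.974). Slc25a45 separated the groups, with a difference of only 0.07 (SE 0.04). In the authors' values its groups overlapped, at 22, 18 and 22 units in Cre cultures and 19, 22 and 21 in control cultures. Slc25a43, Slc25a48 and Slc25a54 stood at 0.05, 0.06 and 0.03, and Slc25a35 at -0.07. Slc25a53 was at the floor on both probes, of which 1 was tested (-0.006, SE 0.04).

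Over the 46 genes tested, 24 stood above 0 and 22 below (49.6% of all probes stood above 0). The median log2 difference was 0.003, beside -0.0006 over all probes, and the quartiles were -0.05 and 0.05 for carriers and -0.05 and 0.05 for all probes. The median was 0.002, 0.007 and 0.007 in the 3 same-numbered pairs. All Cre arrays lay above all control arrays for 3 member probes, those of Slc25a30, Slc25a23 and Slc25a45 (6.38%), beside 5.22% of all probes. All Cre arrays lay below all control arrays for 0 member probes, beside 5.31% of all probes.

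The intervals of the fit without the replicate block give the size of difference left room for when replicates are not paired. For 41 of the 46 genes (89.1%) the 95% interval lay within 1.5-fold in either direction, beside 90.1% of all probes. The 5 exceptions were Slc25a30, Slc25a5, Slc25a18, Slc25a24 and Slc25a33. Their SEs were, in that order, 0.07, 0.22, 0.29, 0.24 and 0.23. With the replicate block they were 0.06, 0.11, 0.08, 0.04 and 0.05. Without the block, spread between same-numbered pairs counts in the interval. The offset of 50 compresses differences, also for genes brighter than the array median of 25 in the authors' values. With an offset of 16, Slc25a30 stood at 0.71 and Slc25a23 at 0.32. Where the blank mean was simply subtracted, they stood at 0.78 and 0.38. The 1.5-fold bound therefore applies to compressed values. For 13 of the 46 genes the mean of the authors' values was under that median. Narrow intervals of such dim probes do not bound the change in RNA.

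Genes that work with the carriers were read from the same fit, from a list of 60 of which 52 were on the array and tested. Of these, 2 stood above 0 and 3 below 0 with an unadjusted p below 0.05 (5.62% of all probes were called in either direction), and 0 passed the adjusted threshold. With the replicate block 0 of the 52 stood above 0 and 4 of the 52 below 0 at that level (9.34% of all probes in either direction). Tomm22 and Timm13 were still among them, at unadjusted p of 0.0132 and 0.00743 and adjusted p of 0.416 and 0.391 in limma. The one-carbon enzyme gene Mthfd2 and the biogenesis regulator Nrf1 were the other two, at unadjusted p of 0.0283 and 0.027 and adjusted p of 0.47 and 0.464 in limma. Timm29, Tomm40 and Timm22 had unadjusted p of 0.0569, 0.0516 and 0.0758 and adjusted p of 0.554, 0.537 and 0.593 in limma in that fit. Without the block, all 5 belonged to the 11 genes of the import route of the carriers, of which 2 lay above 0 and 9 below, with a median of -0.14. Tomm22, a receptor subunit of the outer membrane translocase, read 10.67, 10.68 and 10.49 in Cre cultures and 10.81, 10.94 and 10.85 in control cultures, with no overlap (difference -0.25, SE 0.07, limma adjusted p = 0.692). Timm22, the insertion channel for carriers, read 6.16, 6.02 and 6.20 in Cre cultures and 6.29, 6.29 and 6.24 in control cultures (difference -0.14, SE 0.06, limma adjusted p = 0.876). Timm13, a small chaperone of the intermembrane space, stood at -0.22 (SE 0.09, limma adjusted p = 0.882).

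The 2 import genes above 0 had values of similar size. Timm29, a further subunit of the TIM22 complex, read 8.31, 8.14 and 8.23 in Cre cultures and 7.89, 8.05 and 8.09 in control cultures (difference 0.22, SE 0.07, limma adjusted p = 0.777). Tomm40, the pore of the outer membrane, stood at 0.24 (SE 0.09, limma adjusted p = 0.873). The chaperones Timm8a1, Timm9 and Timm10 stood at -0.21 (SE 0.19), -0.16 (SE 0.14) and -0.19 (SE 0.11). The third gene above 0 by p was Fech, the last enzyme of heme synthesis, at 0.12 (SE 0.05, limma adjusted p = 0.916).

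**Figure D3:**
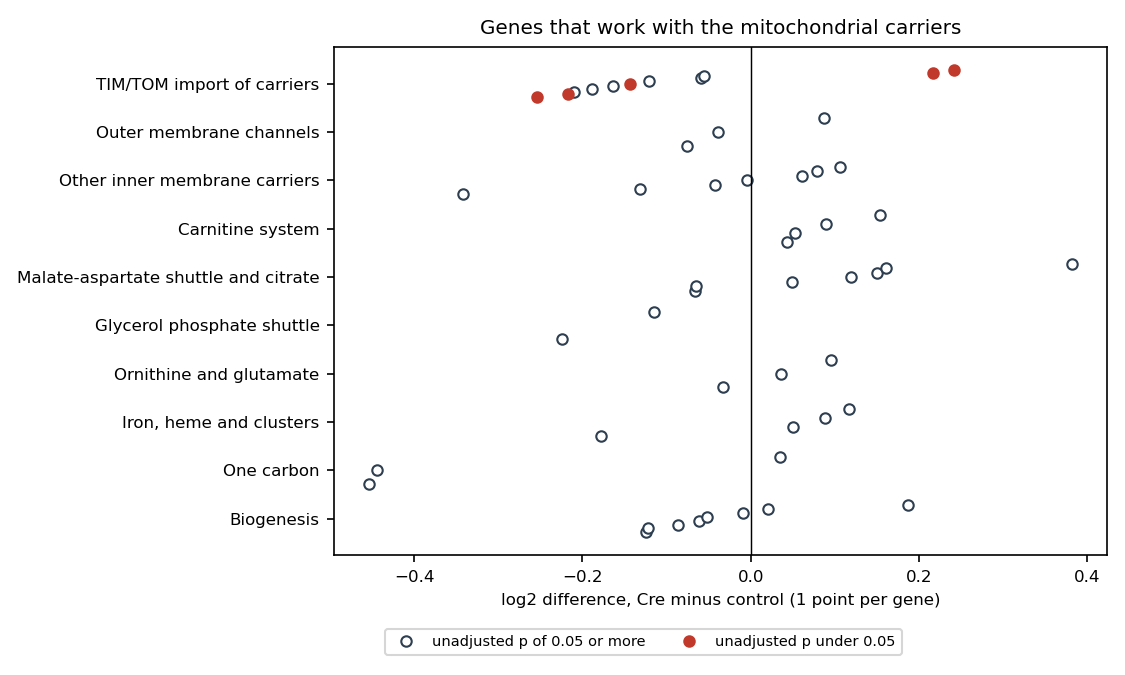
Log2 difference between Cre and control cultures (horizontal axis) for 52 genes that work with the carriers, 1 point per gene, by list (vertical axis). Filled points have an unadjusted p under 0.05 without the replicate block, and all 5 lie in the import list, 3 below 0 and 2 above.

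The other partner lists held 0 genes with an unadjusted p under 0.05 in limma without the block, and Mthfd2 and Nrf1 with it. All 4 genes of the carnitine system lay above 0, between 0.04 and 0.15 (SE 0.11 to 0.21), with overlapping groups. In the pair of replicate 2 each of them lay below 0, between -0.43 and -0.13. In the malate-aspartate shuttle and citrate list 5 of 7 genes lay above 0, led by the citrate lyase gene Acly at 0.38 (SE 0.17). The one-carbon enzymes Mthfd2 and Shmt2 stood at -0.44 (SE 0.22) and -0.45 (SE 0.28), with the highest values of both on control replicate 2. Mthfd1l, also in that list, stood at 0.03 (SE 0.07). For Mthfd2 every Cre array lay below every control array, as for 5.31% of all probes, and Cre replicate 1 was the lowest. For Shmt2 the groups overlapped. The voltage-dependent channel genes Vdac1, Vdac2 and Vdac3 stood at 0.09, -0.04 and -0.08. The biogenesis regulators Ppargc1a and Tfam stood at -0.06 (SE 0.22) and -0.12 (SE 0.12).

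Cell markers were set beside these values. Of all probes tested, 49.6% lay above 0, and 5.62% had an unadjusted p under 0.05 in limma (2.77% above 0 and 2.85% below). All 10 astrocyte markers were above background on all arrays, and 9 lay above 0, of which Aldh1l1 (0.72), Aqp4 (0.31) and Glul (0.23) had an unadjusted p under 0.05. Their summed authors' values were 6469 to 8252 units in Cre cultures and 4861 to 8655 units in control cultures. Of 10 microglia markers 9 were tested and 6 lay below 0, with C1qa (-0.67), C1qb (-0.71) and Tyrobp (-0.26) lower and Cd68 (0.48) above 0 at that level. Their sums were 268 to 337 units in Cre cultures and 330 to 358 in control cultures, and Itgam was above background on 0 arrays. Of the 7 oligodendrocyte lineage markers tested, 2 lay above 0 and 5 below. Their sums were 1362 to 2106 units in Cre cultures and 1481 to 2803 in control cultures. Most of this was Olig1, at 1036 to 1633 units in Cre cultures and 1141 to 2259 in control cultures. Mbp, Mog, Sox10, Pdgfra and Cspg4 read at most 29 units in Cre cultures and 30 in control cultures. Of the 8 neuron markers, 5 lay above 0 and 3 below. Among them, Neurod1 (0.46, SE 0.07) and Nefm (0.39, SE 0.07) were above 0 at that level. Every Cre array lay above every control array for both, as for 5.22% of all probes. Neurod1 read 21, 12 and 19 units in Cre cultures and 5, 5 and 6 in control cultures, and Nefm read 38, 26 and 28 units in Cre cultures and 21, 18 and 16 in control cultures. The 8 neuron markers summed to 156 to 246 units in Cre cultures and 149 to 194 in control cultures. Of the 6 fibroblast and mural markers, 1 lay above 0 and 5 below. They summed to 5693 to 8859 units in Cre cultures and 6081 to 10108 in control cultures. Most of this sum was Acta2, at 5611 to 8336 units in Cre cultures and 5684 to 9409 in control cultures, so it follows that gene. The sums of each of these lists overlapped between the groups, and 0 markers of any list passed the adjusted threshold in limma. With the replicate block, 4 astrocyte, 1 microglia and 3 neuron markers lay above 0 at an unadjusted p under 0.05. Below 0 at that level were 3 microglia markers and 1 fibroblast or mural marker (9.34% of all probes in either direction). The part of these markers in the Slc25a30 and Slc25a23 values was not tested, and in bulk cultures fewer cells of a type and less RNA per cell cannot be told apart.

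The highest and lowest values of the members were not spread evenly over the arrays. Control replicate 2 held the highest value of 13 of the 46 genes and control replicate 3 of 11, while Cre replicate 1 held the lowest of 14 and control replicate 1 of 11. Across all probes, 22.3% had their highest value on control replicate 2 and 17.2% on control replicate 3. The share of all probes with their lowest value on each array was not computed, so those counts have no background beside them. Slc25a30 stood between 0.53 and 0.64 and Slc25a23 between 0.21 and 0.27 with 1 array left out, control replicate 2 included. Without control replicate 2, 4 member probes had an unadjusted p under 0.05 in limma, Slc25a17 and Slc25a44 in addition. Where the background was taken from the local column of the scanner files, both stayed above 0, but neither kept an unadjusted p under 0.05 in limma, and 4 other carriers took their place (Slc25a4, Slc25a27, Slc25a36 and Slc25a39). In the authors' values Slc25a30 kept that level and Slc25a23 did not, while 9.7% of all probes reached it. There the dimmer Slc25a51 probe was the other member at that level, and it was lower in Cre cultures (-0.37). This probe was also below 0 at that level after quantile normalisation of these values (-0.36) and without control replicate 1 (-0.15). Without control replicate 3, Slc25a46 was (-0.26).

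**Figure D4:**
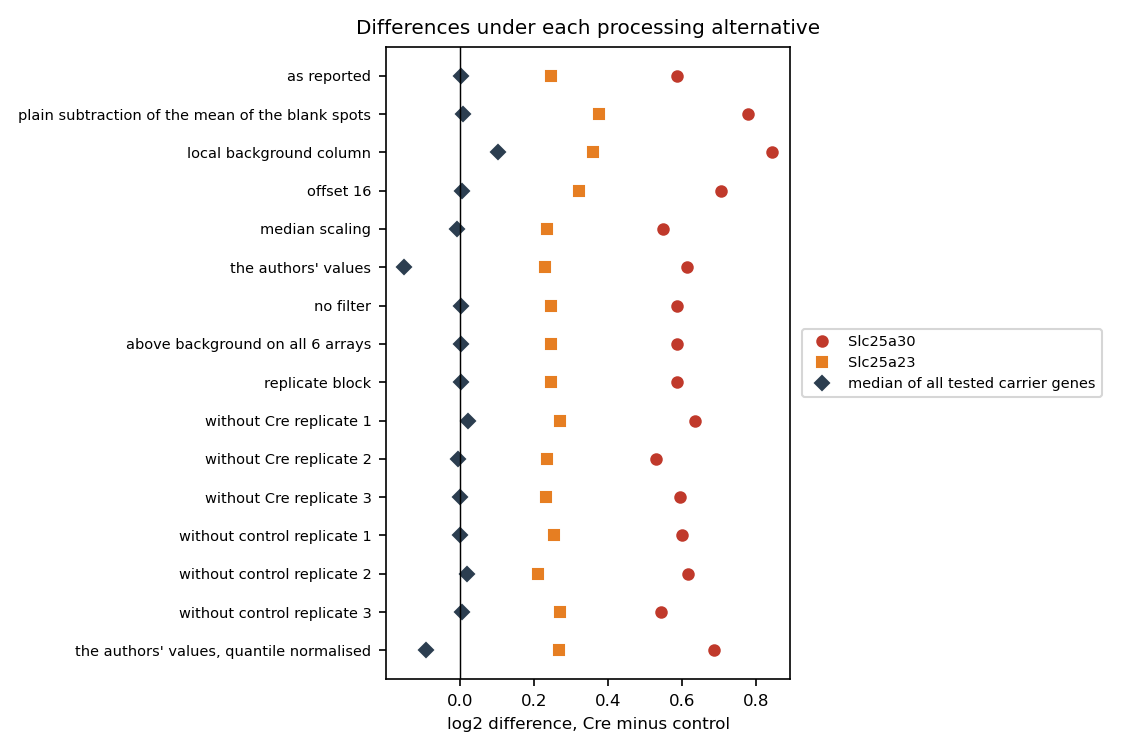
Log2 difference between Cre and control cultures (horizontal axis) for Slc25a30, Slc25a23 and the median of the tested carrier genes under each processing alternative (vertical axis). Slc25a30 runs from 0.53 to 0.84 and Slc25a23 from 0.21 to 0.38, while the median runs from -0.15 to 0.10.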

How the data were processed

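Total RNA of 6 samples was amplified, coupled to Cy5 and hybridised in 1 colour, according to the labels. Scanner files, as deposited, hold a median intensity and a local background per spot, per the file headers. The authors' deposited value table is on a linear intensity scale. Each of its columns followed the spot median less an amount near the blanks and scaled by a single divisor for the array (1.44 to 1.94), with a median of 25. The steps behind it are not given in the sources used here. Probe names came from the platform annotation, and 20556 of 23473 probes matched RefSeq's table for GRCm38.p6.

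Spot intensities were corrected by normexp against 2736 blank spots (nec, offset 50), log2 transformed and quantile normalised with limma 3.58.1 in R 4.3.3. The 0 to 9 spots per array that carry a scanner mark were dropped. A probe was above background where it exceeded the blank mean by 2 SD, and probes above it on 3 or more of 6 arrays were tested. Cre and control were compared with limma (lmFit, eBayes, two-sided), Benjamini-Hochberg adjusted over 20542 probes, threshold 0.05. The fit was tested on simulated data. The brightest probe stood for a gene. Values per array are given for member probes with an unadjusted p under 0.05, the 3 brightest and the smallest p in each role group, as well as for relatives and other genes chosen after their values were seen. Partners were named by the 3 smallest p in each direction, and others after their values were seen. The members and lists were chosen with earlier results of these data known. Same-numbered arrays deviated together from their group means (r of 0.498, 0.425 and 0.436). The numbers, which come from the sample titles, paired the samples in the replicate block and in the pair differences only. The main fit, its intervals and the exact permutation tests did not use this pairing. Alternatives changed the background correction, offset, scaling, source of values, filter, block and arrays included.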

Additional observations from a re-analysis of the deposited data

How the results depend on the processing

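The count of member probes past the adjusted threshold was 0 under all 15 alternatives, as were the counts of partner genes and of all probes (smallest adjusted p 0.069, without control replicate 2). Slc25a30 and Slc25a23 kept their direction in each. Chd7 stayed between -2.86 and -0.52. The quantile-normalised authors' values were an alternative chosen after seeing the data. With the replicate block the member count at an unadjusted p under 0.05 was 3, and no call at the adjusted threshold was changed. That count was 4 with the local background column, and with 1 array left out it was 2 to 4 (4 without control replicate 2, which added Slc25a17 and Slc25a44). The median of the members, 0.0031, was 0.0075 where the blank mean was simply subtracted, 0.10 with the local background column, -0.0071 with median scaling, -0.15 in the authors' values, -0.092 in these after quantile normalisation and -0.0042 to 0.023 with 1 array left out. The authors' values shifted the median of all probes by -0.17 (-0.13 after quantile normalisation), and relative to it the members stood at 0.017 and 0.034. Signs near 0 turned for several carriers, and the cause was not tested. Slc25a4 was -1.31 with the local background column, -0.092 in the authors' values, -0.0023 after quantile normalisation and -0.073 to 0.078 with 1 array left out. Slc25a20 was -0.0066 with median scaling, -0.13 in the authors' values, -0.062 after quantile normalisation and -0.053 to 0.12 with 1 array left out, and it was 0.59 with the local background column. The local background column also moved Slc25a17 to 0.58, Slc25a12 to -0.62, Slc25a3 to -0.34 and Slc25a5 to -0.38, without a change of sign. Slc25a47 was -0.014 with the local background column, Slc25a17 -0.077 in the authors' values and Slc25a37 -0.0033 after quantile normalisation. With 1 array left out, Slc25a5 ran from -0.19 to 0.11 and Slc25a10 from -0.025 to 0.28. Signal close to the blank spots limits what the dim carriers can show.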
